A study of Mus musculus with 18 samples.

Results

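The cytosolic chaperonin CCT, also called TRiC, is built from 8 subunit genes, Tcp1, Cct2, Cct3, Cct4, Cct5, Cct6a, Cct7 and Cct8. They were chosen by gene symbol, without a threshold on any measured value. A row of the count table carried the symbol of 7 of the 8, so 7 of 15307 features are described, and Cct6a was not analysed here. All 7 passed the filter on low counts in every fit. The cells were GTML cells, mouse medulloblastoma cells in which a human MYCN transgene is expressed from the GLT1-TRE system in the neural progenitors of the hindbrain. Every group, controls included, carries this transgene. The groups were vehicle (DMSO), 50 nM Rapalink-1 and 5 nM rapamycin, each for 3 h in neurobasal medium with B27, EGF and bFGF, with 3 replicates each. From every lysate an aliquot gave a total RNA library and the rest a ribosome footprint library, so that there are 18 libraries. Footprint libraries are labelled RP-B with DMSO and Rapalink-1 but RP with rapamycin. The sample numbers of all rapamycin libraries also follow those of the other groups. What these labels stand for is not given in the sources used here, and it cannot be told apart from rapamycin treatment. GTML is a single line, and the labels do not say that replicates were separate cultures, so p-values measure only the spread between these samples, which may be technical.

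CCT is a double ring that encloses unfolded proteins and releases them folded on ATP hydrolysis. Actin and tubulin depend on it, as do many WD40 propeller proteins, among them the mTORC1 component Raptor. Each ring holds each subunit once, and the subunits keep a fixed order in which Cct2 lies between Cct5 and Cct4, Tcp1 between Cct4 and Cct3, and Cct8 beside Cct7. Cct2, Cct4 and Cct5 are known to bind ATP more tightly than Cct3, Cct6a and Cct8. The kinase mTOR controls translation through the S6 kinases and through the 4E-binding proteins, which restrain the cap-binding factor eIF4E. Rapamycin binds mTOR outside its active site and acts mainly on the S6 kinase arm, while Rapalink-1 links rapamycin to an ATP-site inhibitor and acts on both arms.

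Libraries held 6788365 to 13300292 RNA reads and 7692625 to 14150068 footprint reads, and each measured subunit had between 4201 and 20182 reads in every library. Levels are given as CPM, reads relative to a library's size after scaling with TMM factors, and they are not corrected for gene length, so they are compared between treatments and not between genes. Changes are log2 fold changes ± SE, tested with edgeR's quasi-likelihood method with Benjamini-Hochberg adjustment over all genes, and called at an adjusted p under 0.05. Since no spike-in is recorded, changes are relative to the rest of a library's genes. Marker levels are the exception: they are CPM of library totals, without TMM factors. Of 9 progenitor and hindbrain markers, 5 had a row (Nes, Zic1, Zic2, Pax6 and Slc1a3). They summed to 195 to 198 CPM of RNA with DMSO, 206 to 218 with Rapalink-1 and 212 to 217 with rapamycin, so that both drug groups lay above DMSO. Their footprints summed to 218 to 225 CPM with DMSO, 382 to 406 with Rapalink-1 and 267 to 291 with rapamycin. Of the markers of other cell types, Cnp (1 of 5 oligodendrocyte markers) had 7.7 to 10.6 CPM of RNA with DMSO, 11.6 to 15.4 with Rapalink-1 and 11.6 to 12 with rapamycin, so that both drug groups lay above DMSO. Itgam and Hbb-bs (2 of 6 microglia and blood markers) summed to 98.8 to 148 CPM of RNA, with overlap between groups, but their footprints summed to 52.1 to 78.3 CPM with DMSO, 26.0 to 29.0 with Rapalink-1 and 58.1 to 73.2 with rapamycin. Cnp RNA and the footprints of Itgam and Hbb-bs moved with Rapalink-1 in the direction of the subunits given below. Cnp footprints leaned the other way, with overlap (11.9 to 15.1 CPM with DMSO, 14.6 to 17.8 with Rapalink-1). So did the RNA of Itgam and Hbb-bs, also with overlap (105 to 148 CPM with DMSO, 98.8 to 109 with Rapalink-1). Acta2 (1 of 6 vascular and fibroblast markers) had 31.8 to 41.8 CPM of RNA and 233 to 297 CPM of footprints. On this scale DMSO and Rapalink-1 overlapped in both. Library totals in place of TMM factors moved the median footprint change of all genes with Rapalink-1 by 0.272. Overlap of the marker sums with TMM factors was not examined. The part of such cells in the results was not tested.

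In mouse build GRCm38, Tcp1 spans chr17:12916329-12925067, Cct2 chr10:117050997-117063852, Cct3 chr3:88297135-88321766 and Cct4 chr11:22990593-23003336. Cct5 spans chr15:31590800-31601846, Cct7 chr6:85451505-85468477 and Cct8 chr16:87483325-87495869. Each interval is a protein-coding gene, and no 2 of the 7 lie on the same chromosome. The mRNAs whose translation depends most on mTOR, those of ribosomal proteins, carry a 5′ terminal oligopyrimidine tract (TOP), a C at the cap followed by pyrimidines. The starts of the subunit genes are therefore shown, from 10 bases before to 20 bases from the start that RefSeq lists at the gene's edge (GRCm38.p6), 5′ to 3′ on the gene's strand. Capitals mark the first 5 transcribed bases.
Cct2 (chr10:117063833-117063862, minus strand): ccagcccgccACGCAggaggcggaaacccg
Tcp1 (chr17:12916319-12916348, plus strand): cccctacttcCGGCGttttcagtttttcgc
Cct7 (chr6:85451495-85451524, plus strand): tgggcggctcGCGGGgttgcgcgggatcca
Cct5 (chr15:31601827-31601856, minus strand): aaaaaagtcaCTGTTgaaaagtaagtcgcg
Cct8 (chr16:87495850-87495879, minus strand): ccgaggcccaTTCCCagcaggcagtgcgcg
Cct3 (chr3:88297125-88297154, plus strand): caggtttctgTGTCAttcctgaggaggcag
Cct4 had no entry. No listed start of the 6 is a C followed by 4 pyrimidines, a start that 2.51% of 32851 listed promoters have. Cct8 does start with 5 pyrimidines, but the first is a T, so it is not counted. The listed start of the elongation factor gene Eef1a1 has the same 5 bases and is not counted either. Among 61 ribosomal protein genes with a listed start 21.3% have it, so listed starts often lack the tract also in the class known for it. In the 300 bases around these starts, read on both strands, the CCAAT box was found in 3 of 6 subunits (37.4% of all promoters) and CGGAAG, the core of ETS factor sites, in 3 of 6 (16.9%). The E-box CACGTG was in 0 of 6 (7.15%), and GAANNTTC, the core of heat shock elements, in 0 of 6 (7.86%). A further Cct2 start that RefSeq lists inside the gene had GAANNTTC and CGGAAG in its 300 bases, and a further Cct5 start had none of the 4 motifs.

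With Rapalink-1, CCT mRNAs carried fewer ribosome footprints while the mRNAs themselves became more abundant, and the subunits moved by unequal amounts. Footprints of 6 of the 7 subunits fell, by 22% (Cct8) to 56.1% (Cct2), and RNA of all 7 rose, by 9.24% (Tcp1) to 34.2% (Cct2). With library totals in place of TMM factors, 5 of the 7 fell in footprints, with Cct8 no longer passing (adjusted p = 0.14) and Cct3 higher, and 5 of the 7 rose in RNA, with Tcp1 and Cct3 not passing. The median changes of the subunits were then -0.22 in footprints (-0.50 with TMM) and 0.12 in RNA (0.26). Cct2 and Cct4 lost most footprints, and the fall of Cct3 missed the threshold. Of all genes tested, 28% were lower in footprints and 19.4% higher in RNA with TMM factors. Under library totals 1587 of 11281 genes were lower in footprints and 1123 of 11271 higher in RNA. In bulk lysates, fewer cells of a type and less RNA per cell cannot be told apart.

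Cct2 had footprint levels of 1135, 1165 and 1081 CPM with DMSO, and 493, 485 and 505 CPM with Rapalink-1. Its log2 change was -1.19 ± 0.05 (adjusted p = 9.8e-23). Cct4 had 1219, 1155 and 1099 CPM with DMSO and 576, 580 and 598 CPM with Rapalink-1, a change of -0.99 ± 0.053 (adjusted p = 4.6e-19). For both genes, whose products are neighbours in the ring, the highest library with Rapalink-1 (505 and 598 CPM) lay far below the lowest with DMSO (1081 and 1099 CPM). Tcp1, the subunit after which the complex was first named, went from 1113, 1064 and 1036 to 656, 613 and 652 CPM, a change of -0.74 ± 0.05 (adjusted p = 5.8e-16).

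A smaller fall was seen in Cct7, Cct5 and Cct8. Cct7 had 1019, 1068 and 1047 footprint CPM with DMSO and 733, 740 and 748 with Rapalink-1 (-0.50 ± 0.048, adjusted p = 1.8e-11). Cct5, whose product can form rings of its own in vitro, went from 1421, 1417 and 1444 to 1037, 1019 and 1036 CPM (-0.47 ± 0.047, adjusted p = 3.9e-11). In Cct8 the values were 1119, 1122 and 1098 CPM with DMSO and 853, 864 and 889 CPM with Rapalink-1 (-0.36 ± 0.048, adjusted p = 4.8e-08), and under library totals the change was -0.08 (adjusted p = 0.14). In all of these 6 subunits the groups did not overlap.

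Cct3 differed from the rest. Its footprint levels were 1523, 1549 and 1521 CPM with DMSO and 1424, 1403 and 1450 CPM with Rapalink-1. The groups did not overlap here either, so that 7 of 7 subunits were lower with no overlap, against 30.1% of all genes. The change was -0.10 ± 0.046 (adjusted p = 0.057), and under library totals it was 0.17 (adjusted p = 0.0022), the opposite direction. That scaling moved the median footprint change of all genes by 0.272 and the median RNA change by -0.137. In the order of footprint changes Cct2, Cct4, Tcp1, Cct7, Cct5, Cct8, Cct3, neighbours differed by more than 2 combined SE except Cct7 and Cct5 (difference 0.03) and Cct5 and Cct8 (difference 0.11).

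**Figure D1:**
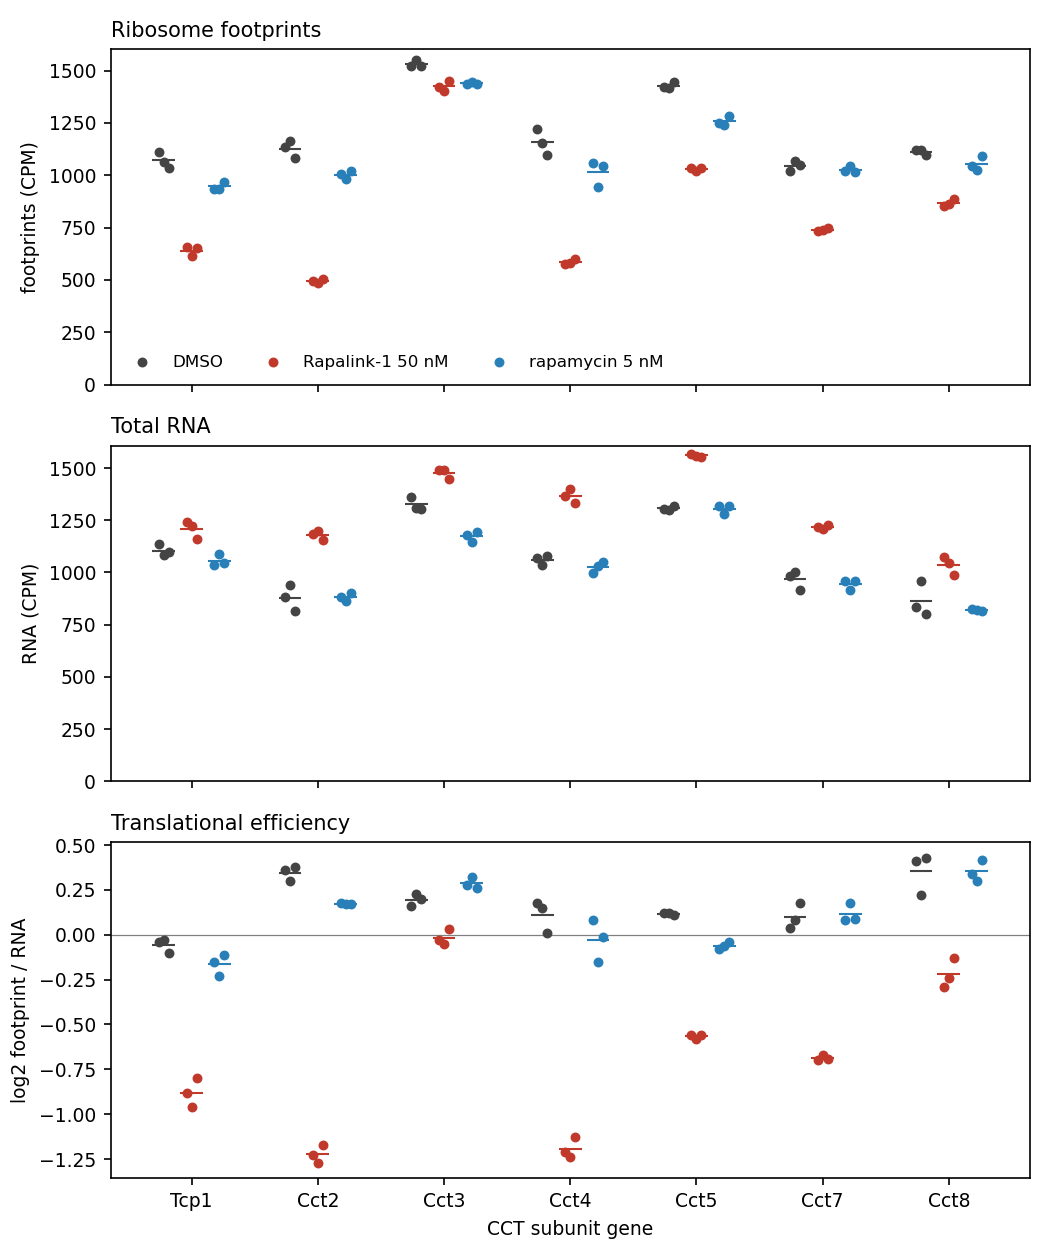
Each point is a library; the columns are the 7 CCT subunit genes, the short lines are means of 3 replicates, and colours give the treatment. From top to bottom the vertical axes are footprint level (CPM), RNA level (CPM) and the log2 ratio of footprints to RNA of a lysate; with Rapalink-1, points are lower for footprints and higher for RNA, and Cct3 footprints (1403 to 1450 CPM against 1521 to 1549) moved least.

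RNA moved the other way. Cct2 RNA was at 880, 939 and 817 CPM with DMSO and 1182, 1199 and 1157 CPM with Rapalink-1, a rise of 0.42 ± 0.043 (adjusted p = 7.2e-11). Cct4 RNA went from 1070, 1035 and 1077 to 1368, 1402 and 1335 CPM (0.37 ± 0.04, adjusted p = 3.5e-10). Thus the pair with the largest fall in footprints also had the largest estimates for RNA, although no neighbours in the order of RNA changes differed by more than 2 combined SE.

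Cct7 RNA rose by 0.33 ± 0.041 (adjusted p = 1e-08), from 985, 1003 and 915 to 1220, 1208 and 1227 CPM. The RNA of Cct5 was at 1302, 1299 and 1318 CPM with DMSO and at 1568, 1560 and 1555 CPM with Rapalink-1 (0.26 ± 0.038, adjusted p = 4.6e-07). For Cct8, whose DMSO libraries were the most scattered (836, 958 and 802 CPM), the Rapalink-1 libraries had 1073, 1045 and 987 CPM (0.26 ± 0.047, adjusted p = 3.6e-05). In these 3 genes, as in Cct2 and Cct4, the lowest Rapalink-1 library lay above the highest DMSO library.

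Tcp1 and Cct3 had the smallest rises in RNA. Cct3 went from 1361, 1311 and 1306 to 1491, 1489 and 1447 CPM, 0.15 ± 0.039 (adjusted p = 0.0013), and under library totals the change was 0.02 (adjusted p = 0.75). Tcp1 went from 1135, 1083 and 1097 to 1240, 1223 and 1158 CPM, 0.13 ± 0.04 (adjusted p = 0.01), and under library totals it was -0.01 (adjusted p = 0.87). Without Rapalink-1 replicate 1 the rise of Tcp1 was 0.11 (adjusted p = 0.077). All 7 subunits were higher in RNA with no overlap between groups, against 23.7% of all genes.

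Translational efficiency, the part of the log2 footprint change that the RNA change does not cover, came from 1 fit over all 18 libraries. It was lower with Rapalink-1 for all 7 subunits, against 19.9% of all genes, though under library totals Cct3 turned to 0.15 (adjusted p = 0.023). In DMSO the footprint to RNA ratio of the subunits was near that of other genes, from -0.06 ± 0.038 (Tcp1) to 0.36 ± 0.119 (Cct8) on the log2 scale (SD, n = 3), and 47.3% to 68.6% of genes had a lower ratio. With Rapalink-1, Cct2 stood at -1.22 ± 0.051, and the share of genes below it went from 68.4% to 9.3%. For Cct4 the ratio went from 0.11 ± 0.090 to -1.20 ± 0.055 and the share from 56.6% to 9.7%. Cct3 stayed in the middle of all genes, with a ratio of 0.20 ± 0.038 in DMSO and -0.02 ± 0.041 with Rapalink-1, and a share of 61.0% and then 50.0%.

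As fitted changes, efficiency fell by 1.57 ± 0.066 in Cct2 (adjusted p = 9.7e-28) and by 1.31 ± 0.066 in Cct4 (adjusted p = 7.3e-24). These falls were deeper than those of all but 1.6% and 2.3% of genes. Tcp1 fell by 0.83 ± 0.064 (adjusted p = 3.2e-16), Cct7 by 0.79 ± 0.062 (adjusted p = 6.8e-16), Cct5 by 0.68 ± 0.058 (adjusted p = 1.4e-14) and Cct8 by 0.57 ± 0.068 (adjusted p = 7.7e-10). Among these 4, neighbours in the order differed by 0.04 to 0.11, less than 2 combined SE. Cct3 fell by 0.21 ± 0.058 (adjusted p = 0.0023). The gaps between Cct2 and Cct4 (0.26), Cct4 and Tcp1 (0.48) and Cct8 and Cct3 (0.36) were each over 2 combined SE. The median change of the 7 was -0.79, and that of all genes 0.06. Under library totals the median of the 7 was -0.42, and the 6 subunits other than Cct3 still fell, from -1.20 in Cct2 to -0.20 in Cct8 (adjusted p = 0.0098).

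**Figure D2:**
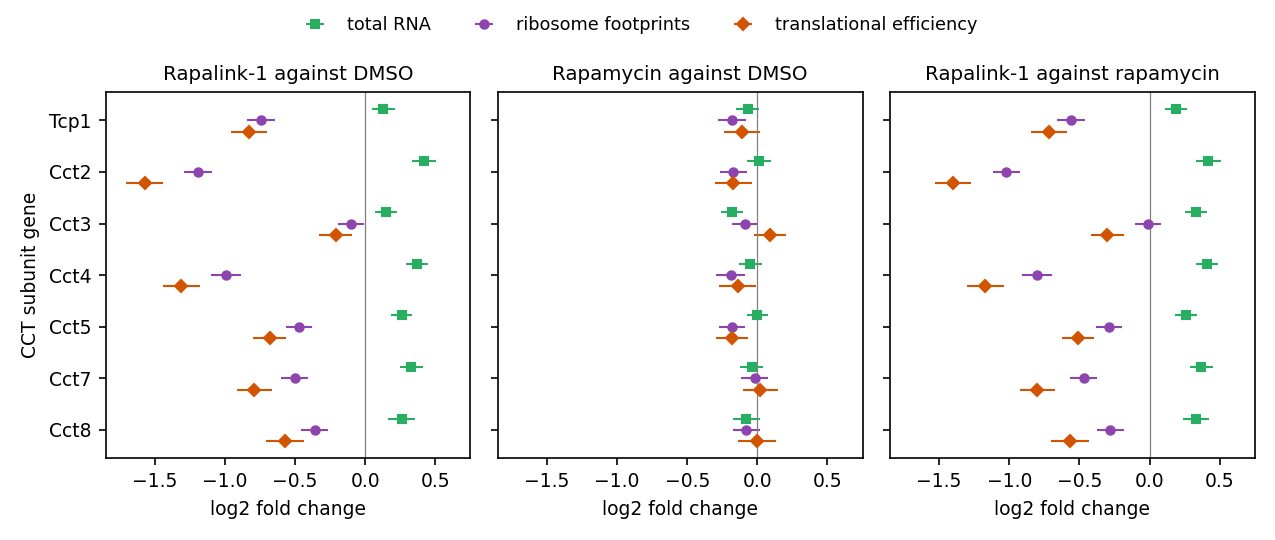
Log2 fold changes (horizontal axis) of the 7 CCT subunits for RNA, footprints and translational efficiency in 3 comparisons; bars extend 2 SE to either side. With Rapalink-1 against DMSO, efficiency ranged from -1.57 (Cct2) to -0.21 (Cct3, which was 0.15 under library totals), while with rapamycin no change exceeded 0.19 in size.

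The unequal changes altered the proportions in which ribosomes were found on the 7 mRNAs. As a share of the 7 genes' footprints, which does not depend on library scaling, Cct2 had 13.3, 13.6 and 13.0% in DMSO and 8.5, 8.5 and 8.6% with Rapalink-1. Cct4 went from 13.7 ± 0.54% to 10.1 ± 0.11%, and Tcp1 from 12.6 ± 0.33% to 11.1 ± 0.31% (SD, n = 3). The share of Cct3 went up, with 17.8, 18.1 and 18.3% in DMSO and 24.7, 24.6 and 24.7% with Rapalink-1. The shares of Cct8 (13.1, 13.1 and 13.2% against 14.8, 15.1 and 15.1%) and Cct5 (16.9 ± 0.42% and 17.8 ± 0.17%) were higher with Rapalink-1, and that of Cct7 went from 12.3 ± 0.36% to 12.8 ± 0.15%. The footprint shares of the 2 groups did not overlap, in Cct7 only narrowly (highest 12.6% in DMSO, lowest 12.7% with Rapalink-1). Since the shares have a fixed sum, a fall in some genes raises the others, so the 7 are not separate results. No matching share over all genes was computed.

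In RNA the shares of Cct2 and Cct3 went the opposite way, from 11.7 ± 0.58% to 13.0 ± 0.11% for Cct2 and from 17.7 ± 0.42% to 16.3 ± 0.01% for Cct3. Cct2 footprints per Cct3 footprint numbered 0.745, 0.752 and 0.711 with DMSO, 0.346, 0.346 and 0.348 with Rapalink-1 and 0.701, 0.677 and 0.709 with rapamycin. The same ratio in RNA was 0.663 ± 0.047, 0.799 ± 0.006 and 0.752 ± 0.003 in this order. This pair was chosen after its values were seen, and no test is attached to it. Together the 7 genes took 0.786 ± 0.019% of all footprint reads with DMSO, 0.648 ± 0.014% with Rapalink-1 and 0.744 ± 0.020% with rapamycin (SD, n = 3). Of RNA reads they took 0.774 ± 0.014%, 0.847 ± 0.015% and 0.745 ± 0.005%.

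**Figure D3:**
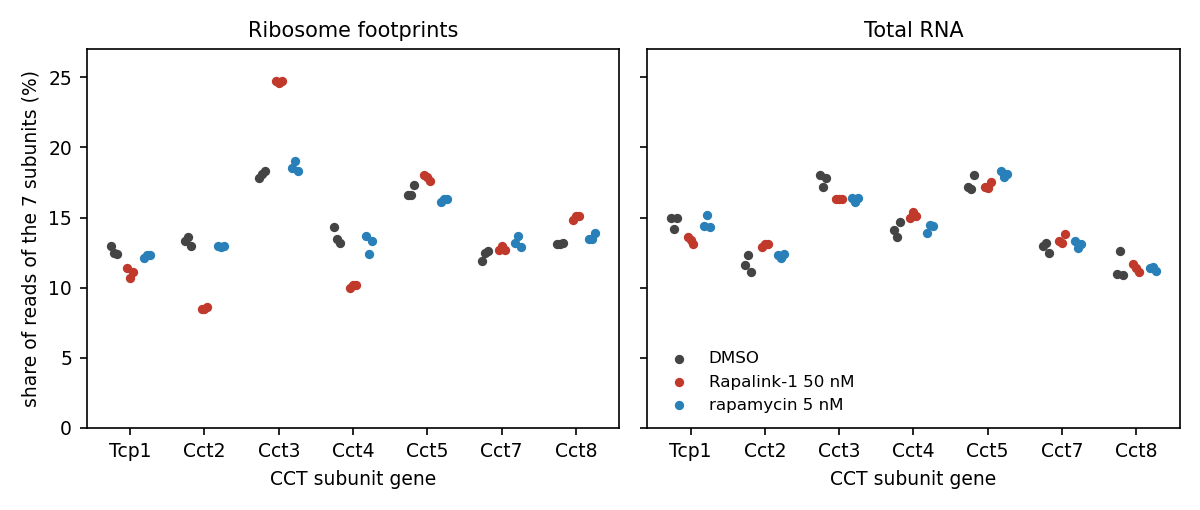
Share of each subunit (vertical axis, %) in the summed reads of the 7 measured CCT genes, with a point for each library, footprints on the left and RNA on the right. With Rapalink-1 the footprint share of Cct3 was 24.6 to 24.7% and that of Cct2 8.5 to 8.6%, while RNA shares stayed within 10.9 to 18.3% in all libraries.

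Rapamycin changed the subunits little. It lowered the footprints of 4 of the 7, against 9.4% of all genes, by 11.2% to 12.4%, and lowered RNA of Cct3. Cct4 footprints were at 1058, 942 and 1043 CPM, against 1219, 1155 and 1099 with DMSO (-0.19 ± 0.052, adjusted p = 0.0077). Cct5 had 1251, 1240 and 1281 CPM (-0.18 ± 0.046, adjusted p = 0.0042), Tcp1 936, 935 and 969 CPM (-0.18 ± 0.049, adjusted p = 0.0088) and Cct2 1005, 980 and 1019 CPM (-0.17 ± 0.049, adjusted p = 0.011). In each of the 4, all rapamycin libraries lay below all DMSO libraries and above all Rapalink-1 libraries.

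The other 3 did not pass. Cct3 had 1434, 1446 and 1436 footprint CPM (-0.09 ± 0.046, adjusted p = 0.18), Cct8 1044, 1025 and 1091 CPM (-0.08 ± 0.048, adjusted p = 0.27) and Cct7 1021, 1044 and 1017 CPM (-0.02 ± 0.047, adjusted p = 0.79). Cct7 was the subunit whose rapamycin and DMSO libraries overlapped, so that 6 of 7 were lower with no overlap, against 15.7% of all genes. The calls were narrow. Under library totals 0 subunits passed, with adjusted p from 0.054 to 0.1 for those 4. Without DMSO replicate 1, 2 passed, since Tcp1 (adjusted p = 0.054) and Cct4 (adjusted p = 0.061) were lost. Cct2 was lost without DMSO replicate 2 (adjusted p = 0.07), and Cct4 also without rapamycin replicate 2 (adjusted p = 0.086).

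RNA under rapamycin was lower in 1 of 7 subunits, against 10.5% of all genes, a share near this background. This was Cct3, with 1178, 1148 and 1196 CPM against 1361, 1311 and 1306 (-0.18 ± 0.039, adjusted p = 0.00058). The other 6 lay between -0.08 (Cct8) and 0.01 (Cct2), and their groups overlapped. Without DMSO replicate 3 Cct8 passed too, at -0.13 (adjusted p = 0.038), which made 2.

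Efficiency under rapamycin was lower in 1 of 7, against 9.85% of all genes, so this share too was near the background. Cct5 fell by 0.18 ± 0.058 (adjusted p = 0.027). Its footprint to RNA ratio was 0.12, 0.12 and 0.11 in DMSO and -0.08, -0.06 and -0.04 with rapamycin. Cct2 stood at -0.17 ± 0.065 (adjusted p = 0.059), Cct4 at -0.14 ± 0.066 (adjusted p = 0.15) and Tcp1 at -0.11 ± 0.064 (adjusted p = 0.27). The 95% intervals of Cct3 (-0.03 to 0.21), Cct7 (-0.11 to 0.14) and Cct8 (-0.14 to 0.14) spanned 0. The Cct5 call was lost, with adjusted p from 0.058 to 0.11, under library totals, without DMSO replicate 1 or without any 1 of the rapamycin replicates.

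The compounds were compared directly at the doses used, which differ (50 nM and 5 nM). The footprint label differs too (RP-B and RP), so that compound, dose and what that label stands for cannot be told apart. The comparison shares its Rapalink-1 libraries with that against DMSO. Efficiency was lower with Rapalink-1 than with rapamycin in 7 of 7 subunits, against 23.9% of all genes, with a median difference of -0.72. Under library totals the median was -0.39, and 6 of 7 were lower, against 1196 of 10988 genes. Cct2 differed by -1.40 ± 0.065 (adjusted p = 2.3e-25) and Cct4 by -1.17 ± 0.066 (adjusted p = 1.1e-21). Cct7 followed with -0.80 ± 0.062 (adjusted p = 2.5e-16) and Tcp1 with -0.72 ± 0.064 (adjusted p = 4.3e-14). Cct8, at -0.57 ± 0.068 (adjusted p = 4.5e-10), and Cct5, at -0.51 ± 0.058 (adjusted p = 1.6e-10), came next. The difference of Cct3 was -0.30 ± 0.058 (adjusted p = 1.6e-05), and 0.02 (adjusted p = 0.78) under library totals.

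Footprints were lower with Rapalink-1 than with rapamycin in 6 of 7 subunits, against 27.6% of all genes, from -1.02 ± 0.049 in Cct2 to -0.28 ± 0.048 in Cct8. Cct3 was at -0.01 ± 0.046 (adjusted p = 0.83, 95% interval -0.10 to 0.08), and under library totals at 0.21 (adjusted p = 0.00027). Of the other 6, Cct5 and Cct8 did not pass under library totals (adjusted p = 0.24 and 0.34). RNA was higher in 7 of 7, against 19.6% of all genes, from 0.19 ± 0.04 in Tcp1 to 0.42 ± 0.043 in Cct2, and under library totals Tcp1 was at 0.05 (adjusted p = 0.31).

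The subunits' mean profile over the 18 libraries, each gene centred within its assay, was compared with the profiles of 6140 genes with a mean log2 CPM of at least 4 in both assays. Genes were ranked by the root mean square distance in log2 units. The nearest gene was Kars, which encodes lysyl-tRNA synthetase, at 0.037. Its changes with Rapalink-1 against DMSO were -0.68 in footprints, 0.25 in RNA and -0.90 in efficiency. Other near genes were Noc2l, a nucleolar factor (0.053), Farsb, a subunit of phenylalanyl-tRNA synthetase (0.053), Tubb5, a beta tubulin (0.053), and Nsun2, an RNA methyltransferase (0.054). The median distance of all other genes was 0.262. Among the subunits themselves Cct7 (0.051) lay nearest to the mean, and Cct3 (0.172) and Cct2 (0.190), at opposite ends of the response, lay farthest. This is a description of genes measured in the same libraries, and no test is attached to it.

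Genes that work with CCT are described by their efficiency change with Rapalink-1 against DMSO, in which 19.9% of all genes were lower and 22.3% higher. Under library totals, which raised the median of all genes by 0.368, smaller falls were lost or turned, and the counts under that scaling follow each list. Those counts stand against a different background, since under library totals 841 of 10988 genes were lower and 5563 higher. Of 6 prefoldin subunits, which hand unfolded actin and tubulin to CCT, 3 fell and 1 rose, with a median of -0.24 (2 fell and 2 rose, median 0.13, under library totals). Pfdn5 fell by 2.10 ± 0.094 (adjusted p = 4.9e-26) and Pfdn1 by 1.02 ± 0.11 (adjusted p = 1.2e-10), while Pfdn6 rose by 0.56 ± 0.098 (adjusted p = 5.6e-06). The members of this complex thus also moved unequally. Of the cofactors that bind CCT itself, 4 of 5 had a row (Pdcl2 had none), and 3 fell, with a median of -0.39 (1 fell and 1 rose, median -0.02, under library totals). Pdcd5 fell by 0.68 ± 0.12 (adjusted p = 3.6e-06) and Pdcl3, a phosducin-like protein, by 0.50 ± 0.12 (adjusted p = 0.0004), the latter at -0.13 (adjusted p = 0.32) under library totals. Txndc9 was at -0.28 ± 0.094 (adjusted p = 0.014), and at 0.09 (adjusted p = 0.42) under library totals. Its call was lost without DMSO replicate 1, Rapalink-1 replicate 1 or Rapalink-1 replicate 2 (adjusted p from 0.051 to 0.19).

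The proteins that CCT folds were mixed. Among 15 actin and tubulin genes there were 13 falls and 0 rises, and the median was -0.57 (8 fell and 0 rose, median -0.21, under library totals). Tubb2b fell by 1.33 ± 0.078 (adjusted p = 3.6e-21), Actg1, cytoplasmic gamma actin, by 1.29 ± 0.064 (adjusted p = 2.5e-24) and Tubb2a by 1.17 ± 0.083 (adjusted p = 1.2e-17). Tubulin and actin genes are close in sequence. How reads that fit several of them were counted is not given in the sources used here. Tuba1a, Tuba1b and Tuba1c had similar mean footprint levels with DMSO (3145, 3346 and 3199 CPM). The separate values of these genes, and the counts and median over them, are therefore uncertain. Of 6 tubulin folding cofactors, which take over from CCT, 4 fell, with a median of -0.40 (1 fell and 1 rose, median -0.03, under library totals). Tbca, which holds beta tubulin, fell by 0.94 ± 0.094 (adjusted p = 3.3e-12). Tbcd was at -0.42 ± 0.097 (adjusted p = 0.00036) and Tbcc at -0.61 ± 0.15 (adjusted p = 0.0007), and neither passed under library totals.

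Among 15 WD40 and other substrates, 3 fell and 5 rose, with a median of -0.04 (0 fell and 10 rose, median 0.33, under library totals). The count of 5 was 1 without Rapalink-1 replicate 1, 2 without Rapalink-1 replicate 2 or DMSO replicate 1, and 3 without DMSO replicate 2 or with only the 2 treatments in the fit. Rptor, which encodes Raptor, rose by 0.68 ± 0.11 (adjusted p = 2e-06). Hdac3 was at -0.47 ± 0.098 (adjusted p = 7.9e-05) and Vhl at -0.86 ± 0.25 (adjusted p = 0.0042), with neither passing under library totals.

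Other chaperones also moved unequally. Of 5 measured relatives of CCT (Cct6b had no row), 2 fell and 1 rose, with a median of 0.17 (2 fell and 2 rose, median 0.53, under library totals). The mitochondrial chaperonin Hspd1 fell by 0.87 ± 0.062 (adjusted p = 8.8e-18) and its partner Hspe1 by 0.63 ± 0.09 (adjusted p = 7.6e-07), while Mkks, a chaperonin-like protein of the basal body, rose by 1.13 ± 0.32 (adjusted p = 0.0033). In the HSP70 and HSP90 system 6 of 11 genes were lower and 0 higher, and the median was -0.39 (4 fell and 5 rose, median -0.02, under library totals, and 1 rose with a replicate block). Hspa8, the constitutive HSP70, fell by 2.36 ± 0.057 (adjusted p = 1.1e-38) and Hsp90ab1 by 1.78 ± 0.061 (adjusted p = 8.1e-32), more than any CCT subunit. Hspa9, the mitochondrial HSP70, fell by 0.72 ± 0.061 (adjusted p = 1.4e-14). Of the heat shock factors, Hsf1 rose by 0.38 ± 0.14 (adjusted p = 0.022), a call lost without DMSO replicate 1 (adjusted p = 0.096), DMSO replicate 3 (adjusted p = 0.075) or Rapalink-1 replicate 1 (adjusted p = 0.14), and Hsf2 was at -0.19 ± 0.14 (adjusted p = 0.3). Both subunits of the nascent polypeptide-associated complex fell, also under library totals, Naca by 1.04 ± 0.069 (adjusted p = 8.4e-19) and Btf3 by 0.90 ± 0.065 (adjusted p = 2.4e-17).

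A further multi-subunit ring, the 20S core of the proteasome, moved less. Its 14 genes had 7 falls and 0 rises and a median of -0.15 (2 fell and 8 rose, median 0.22, under library totals). Psmb6 fell by 0.61 ± 0.074 (adjusted p = 1.1e-09), Psma7 by 0.58 ± 0.075 (adjusted p = 6.9e-09) and Psmb1 by 0.46 ± 0.067 (adjusted p = 9.5e-08), the last not passing under library totals. The 14 changes had an SD between genes of 0.23, and the 7 CCT changes 0.46. Over all genes tested this SD was 0.59, so the CCT changes were not more spread than those of genes at large. Of 76 cytosolic ribosomal protein genes tested 75 fell under either scaling, with a median of -2.28 (-1.91, and 1 rose, under library totals). Rps18 was at -3.18 ± 0.067, Rps7 at -2.99 ± 0.066 and Rps27, whose reads are shared with its near copy Rps27rt, at -3.27 ± 0.071. The median of the CCT subunits (-0.79, and -0.42 under library totals) lay between that of these mRNAs and that of all genes.

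With rapamycin most of these lists had few genes past the test. The ribosomal protein genes had 61 of 76 lower, against 9.85% of all genes, and 1 higher, with a median of -0.38. Of the 20S core, 6 of 14 genes were higher, against 6.52% of all genes, and 0 lower, with a median of 0.16, and Psmb6 and Psma7, which fell with Rapalink-1, were each at 0.34. In the HSP70 and HSP90 system 2 of 11 fell, a share not far from that 9.85%, with Hsp90ab1 at -0.51. The median of the 7 CCT subunits was -0.11.

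**Figure D4:**
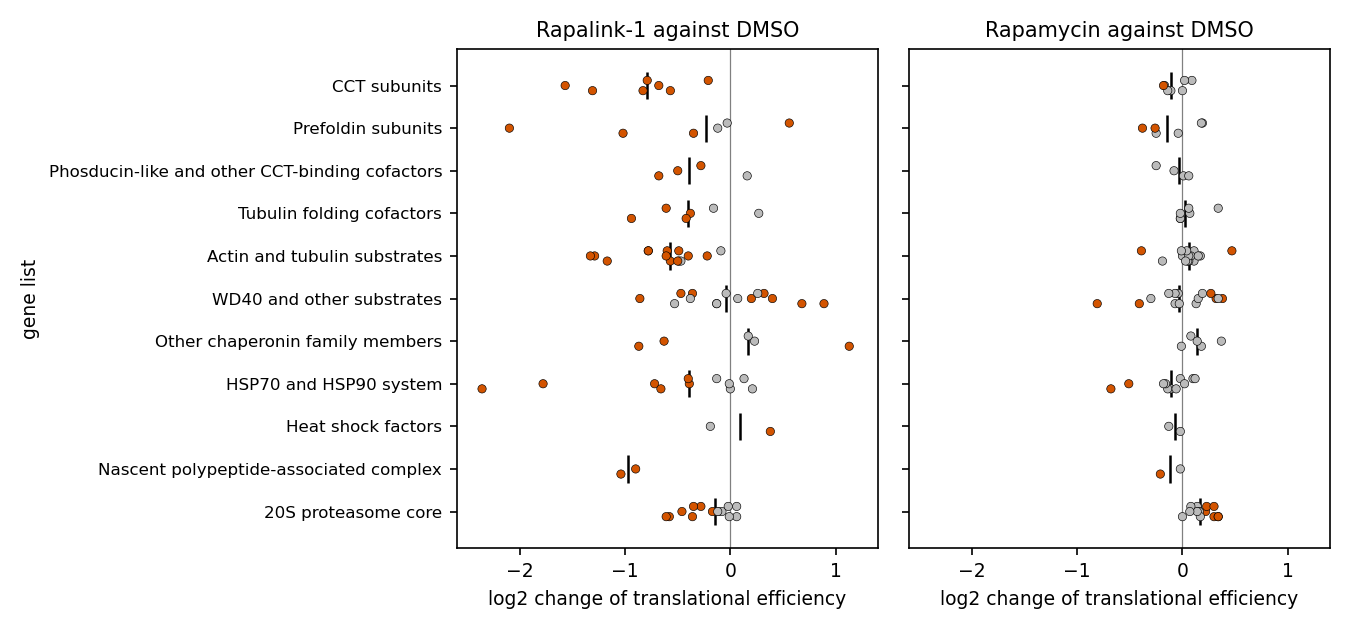
Log2 change of translational efficiency (horizontal axis) for the genes of each list (vertical axis), with Rapalink-1 against DMSO on the left and rapamycin against DMSO on the right. A point is a gene, filled orange at an adjusted p under 0.05, and black lines are list medians, which were -0.79 and -0.11 for the CCT subunits; under library totals Cct3 (-0.21) became 0.15 on the left.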

How the data were processed

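Total RNA and ribosome footprints of 9 lysates were measured in 18 libraries. Per the labels' protocols, ARTseq reagents served for both assays. The build is GRCm38 (mm10) per the submitters' processing notes. Which aligner and counter were used, and how multi-mapping reads were treated, is not given in the sources used here. Whole-number read counts per transcript, unnormalized, were deposited. In the deposited comparison tables, per the file headers, the signal column holds mean normalized counts, the log2 columns the authors' fold change and its error, the score column a test statistic, and the p-value columns raw and adjusted p. From those tables came gene symbols, the Ensembl genes used to merge rows, and the authors' log2 changes with their errors and adjusted p.

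The 27382 transcript rows were merged to 15307 features where they shared counts or a gene, keeping the row with most reads. Each subunit had 1 row. Genes passing filterByExpr (minimum count 10, minimum total 15) were fitted with edgeR 4.0.16 in R 4.3.3 (glmQLFit, robust, TMM, glmQLFTest), 11271 for RNA, 11281 for footprints and 10988, passing in both, for translational efficiency, the interaction of assay and treatment. All 3 treatments shared 1 fit per assay, and p-values were adjusted by Benjamini-Hochberg. The fit was also run on simulated counts with as many rises as falls, which cannot decide between library scalings. Footprint to RNA ratios used a pseudocount of 0.5 CPM. Subunit proportions were planned per length of coding sequence. No coding lengths were at hand, so shares of reads are given instead.

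Replicates of a group differed beyond counting noise (chi-square per degree of freedom 1.94 to 9.5). RNA and footprint libraries of the same number come from 1 lysate per the labels. Their deviations from group means correlated at 0.17 to 0.2 in DMSO and at -0.09 to 0.05 with the drugs. Alternatives were DESeq2 1.42.0, other library scalings, no count filter, summed transcript rows, 2 treatments per fit, a replicate block, and leaving out each replicate.

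The subunits and lists were chosen with earlier results of these data known. Named were all subunits, up to 3 genes per list with the smallest p for efficiency with Rapalink-1 against DMSO, and the 6 nearest profiles, of which 1 is not reported here. Psmb6, Psma7 and Hsp90ab1 under rapamycin were picked after their values were seen. Sequences are from RefSeq for GRCm38.p6, where 6 of the 7 measured subunits had an entry.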

Additional observations from a re-analysis of the deposited data

How the results depend on the processing

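Over all settings other than leaving out a replicate, 505 subunit values kept direction and side of the threshold, 5 reversed, 4 were newly past it and 11 no longer past it. The 5 reversals came under library totals without TMM, and they were Cct3 footprints with Rapalink-1 against DMSO (0.17) and against rapamycin (0.21), Cct3 efficiency in the same comparisons (0.15 and 0.02), and Tcp1 RNA against DMSO (-0.01). Of the genes named from other lists, Txndc9 efficiency reversed there (0.09). Genes of those lists that are not named here were not gone through singly, and some of them turned too. In the 20S core, for example, 8 of 14 genes were then higher in efficiency with Rapalink-1 against DMSO (0 with TMM). This scaling shifts all genes, and with Rapalink-1 against DMSO it gave 1587 genes lower and 5400 higher in footprints (3161 and 2896 with TMM). In RNA it gave 3731 lower and 1123 higher (2123 and 2182), and in efficiency 841 and 5563 (2182 and 2455). Against rapamycin the counts were 1830 and 4979 in footprints (3119 and 2870), 3963 and 1056 in RNA (2422 and 2213) and 1196 and 5179 in efficiency (2631 and 2873). Of the subunits, 1 was then higher in each of footprints and efficiency against DMSO and in footprints against rapamycin. With rapamycin against DMSO it gave 0 subunits lower in footprints or efficiency, and 654 genes lower in footprints (1060). The footprint to RNA ratios in DMSO became -0.20 (Tcp1), 0.21 (Cct2), 0.06 (Cct3), -0.03 (Cct4), -0.02 (Cct5), -0.04 (Cct7) and 0.21 (Cct8).

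For efficiency with rapamycin, DESeq2 called 2 subunits lower (Cct5, and Cct2 with adjusted p = 0.043), and fitting only the 2 treatments called 0. Leaving out single replicates gave 0 to 2 subunits lower in efficiency, 2 to 4 in footprints and 1 to 2 in RNA, and 477 to 728 genes higher in efficiency (716 with all), the lowest without rapamycin replicate 1. Cct3 footprints with Rapalink-1 passed with TMM factors made without ribosomal protein genes (adjusted p = 0.041), with no count filter (0.049), by DESeq2 (0.035) and without DMSO replicate 3 (0.045). The cause of these changes was not tested.

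Deviations of same-numbered libraries of different treatments correlated at -0.19 to 0.23, and those of other-numbered libraries at -0.34 to 0.27. The first range reaches the 0.17 to 0.2 of DMSO libraries from 1 lysate. With 3 replicates per group these values cannot decide whether numbers pair the libraries. With a replicate block the subunit counts were as without it, for example 7 lower in efficiency with Rapalink-1, and the block by lysate changed no subunit call either. Shares per coding length, with and without the ends of the coding sequence, were not run, since no coding lengths were at hand. Each subunit had at least 4201 reads in every library, whereas genes with fewer reads, such as Mkks, had wider errors (SE 0.32).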

Other observations

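For the 7 measured subunits, the log2 changes in the authors' deposited tables differed from those given here by at most 0.03, in all 6 comparisons against DMSO. Some calls differed. By the authors' test Cct3 footprints passed with Rapalink-1 (adjusted p = 0.0053, against 0.057 here) and with rapamycin (0.026, against 0.18 here). Cct2 efficiency with rapamycin passed there too (0.035, against 0.059 here).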
